A study of Mus musculus with 12 samples.

Results

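Genes of cholesterol synthesis, its regulation and the transport of cholesterol were followed in mouse dorsal root ganglia, the clusters of sensory nerve cells beside the spinal cord, after spared nerve injury. The set holds 31 genes of the 24060 named in the files. They were chosen by symbol for their place in the pathway, with earlier results of these data known. A few known genes of the pathway are not among them. Taken by role, they are 20 synthesis enzymes, 7 regulators and 4 genes of sterol storage, transport and efflux. RNA-seq had been run on 12 libraries, with 3 in each of 4 groups. Mice in every group were C57BL/6J males, adult at 9 to 10 weeks. The naive libraries came from mice without surgery, and the others from 1, 3 and 7 days after the injury, in which the sciatic nerve loses its tibial and common peroneal branches, tied and cut, and keeps the sural branch. A sham-operated group was not analysed here, and the injured groups differ from naive by anaesthesia and surgery as well as by the nerve lesion. The labels do not say which ganglia were taken, whether ganglia of several mice were pooled, or whether the libraries of a group came from separate animals, and the spread that p-values rest on may thus be technical.

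Cells make cholesterol from acetyl-CoA, first through mevalonate and the isoprenoids to squalene, and then by closing squalene into lanosterol and trimming lanosterol to cholesterol. When sterols in the endoplasmic reticulum run low, SCAP carries the SREBP transcription factors to the Golgi, where they are cut and released to switch on most genes of the pathway, while the INSIG proteins hold SCAP back when sterols are plentiful. When sterols are in excess, oxysterols activate the LXR receptors, which switch on the exporters ABCA1 and ABCG1. In peripheral nerve much cholesterol is made by Schwann cells for myelin, and in an injured nerve macrophages take up cholesterol from myelin debris.

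The bases just before the start of 3 of these genes are shown because they differ in their matches to the short motifs named below. Hsd17b7 rose, as described below for each library, and held no match to the strict form of the sterol element searched here. Of 26 genes of the set that could be searched, 1 held that form, and looser forms were not searched. Abca1 rose and is known as a target of LXR, for which no element was searched. Hmgcs1 is the enzyme with the highest level and holds the strict sterol form. Sequences are from RefSeq (GRCm38.p6), are written 5′ to 3′ on the strand of the gene, and lie at chr1:169969242-169969455 on the minus strand for Hsd17b7, at chr4:53159896-53160145 on the minus strand for Abca1 and at chr13:119690101-119690350 on the plus strand for Hmgcs1. For Hsd17b7 the last 36 bases before the RefSeq start are not shown, since a GENCODE transcript begins there. Capitals mark the letters TCACNCCAC (a form of the sterol regulatory element), CCAAT (the NF-Y box) and GGGCGG (the Sp1 box), each searched on both strands, so that an NF-Y box on the other strand reads ATTGG and an Sp1 box CCGCCC.
Hsd17b7: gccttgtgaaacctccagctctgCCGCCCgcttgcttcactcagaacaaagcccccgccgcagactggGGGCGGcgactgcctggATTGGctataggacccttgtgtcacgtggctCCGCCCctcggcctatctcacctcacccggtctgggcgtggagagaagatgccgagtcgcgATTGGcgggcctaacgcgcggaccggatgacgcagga
Abca1: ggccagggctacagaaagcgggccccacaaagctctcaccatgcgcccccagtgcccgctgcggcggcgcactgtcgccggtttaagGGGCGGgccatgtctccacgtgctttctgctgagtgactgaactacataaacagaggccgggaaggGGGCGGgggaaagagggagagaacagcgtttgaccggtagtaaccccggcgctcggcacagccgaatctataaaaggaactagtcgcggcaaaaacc
Hmgcs1: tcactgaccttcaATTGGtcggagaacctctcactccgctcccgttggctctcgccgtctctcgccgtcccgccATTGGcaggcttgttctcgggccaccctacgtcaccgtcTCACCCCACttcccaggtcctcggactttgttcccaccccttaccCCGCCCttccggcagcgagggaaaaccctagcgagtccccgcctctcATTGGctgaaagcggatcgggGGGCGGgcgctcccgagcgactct
In the stretches shown, Hsd17b7 held 2 NF-Y boxes and 3 Sp1 boxes, Abca1 held 2 Sp1 boxes, and Hmgcs1 held the sterol element 137 to 129 bases before its RefSeq start with 3 NF-Y boxes and 2 Sp1 boxes. No 2 of these matches overlapped. The RefSeq start of Hmgcs1, unlike those of Hsd17b7 and Abca1, was not found in a GENCODE transcript. GENCODE begins Hmgcs1 further downstream, at chr13:119690379.

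Over the whole 300-base windows of the RefSeq table, from 250 bases before to 50 after the start, 26 of the 31 genes had an entry. An NF-Y box stood in 21 of those 26 (80.8%), against 41.1% of 27025 genes with such a window. An Sp1 box stood in 22 (84.6%), against 38.2% of all. The strict sterol element stood in 1, Hmgcs1 (3.85%), against 1.44% of all. Of the 17 synthesis enzymes with a window, 16 held an NF-Y box and 15 an Sp1 box, and the enzyme without an NF-Y box was Acat2. These matches describe the letters in the windows only.

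From the deposited RPKM values (reads scaled to gene length and library size), 11801338 to 15403014 reads per library could be recovered, and each of the 31 genes was covered by 40 to 19010 reads per library. All 31 passed the filter on low values. The injury genes Atf3, Sprr1a, Gal and Csf1 all rose at every day, and their summed level was 8.66 to 9.92 RPKM in naive and 88.5 to 570 RPKM in the injured libraries. The 12 sensory neuron markers summed to 902 to 1710 RPKM. Naive replicate 1 and day 7 replicate 2 stood apart by transcripts of skeletal muscle, with summed levels of 48.0 and 34.7 RPKM of 9 muscle genes, so the counts below are also given without them where they change. The same naive libraries serve every comparison with naive, so the 3 days are not independent of each other.

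In naive ganglia the synthesis enzymes spanned a wide range of levels. Hmgcs1, which makes HMG-CoA at the head of the mevalonate route, was highest with 127 ± 17.6 RPKM (mean ± SD of 3 libraries here and below). Msmo1, an oxidase that strips methyl groups from lanosterol, followed at 50.9 ± 9.72 RPKM. Sqle and Fdft1, which oxidise and make squalene, stood at 40.1 ± 8.06 and 39.8 ± 10.5 RPKM and did not differ beyond their spread. The low end was Ebp, the sterol isomerase late in the pathway, with 1.8 ± 0.198 RPKM, and above it Mvd, the mevalonate decarboxylase, with 3.17 ± 1.47 RPKM. Of the other genes, Abca1 was highest at 36.2 ± 1.93 RPKM and Nr1h3, which encodes LXRα, lowest at 1.81 ± 0.202 RPKM.

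**Figure D1:**
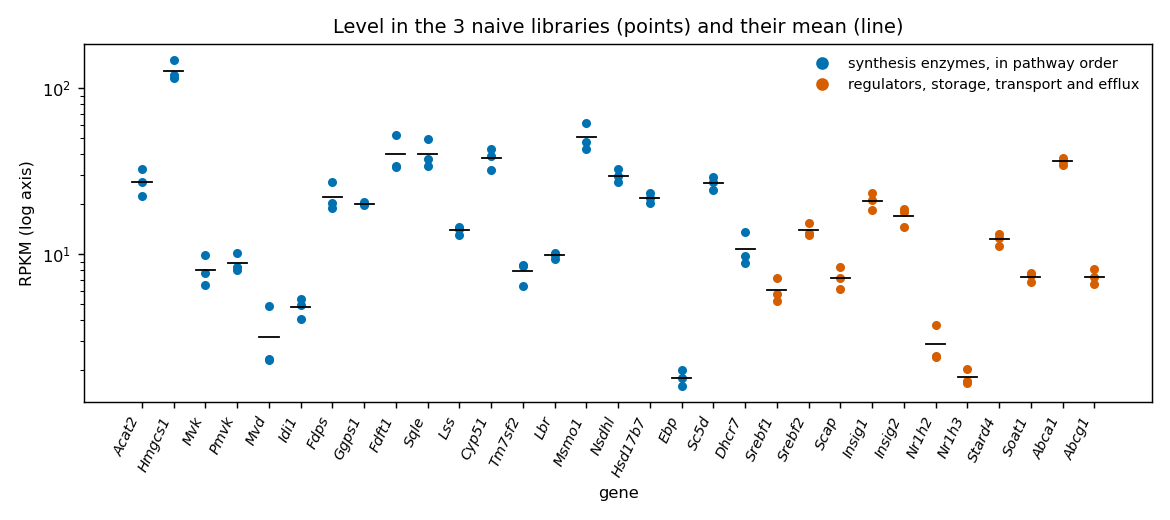
Level of each of the 31 genes in naive ganglia in RPKM on a log axis, with points for the 3 libraries and a line for their mean. Hmgcs1 stands highest at 127 RPKM and Ebp lowest among the enzymes at 1.8 RPKM.

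Among the 31 genes, 2 rose at day 1, Hsd17b7 and Abca1, where 3.43% of 14195 genes tested changed. At day 3 the same 2 genes rose and Abcg1 fell, where 5.67% of all genes changed. At day 7 Hsd17b7 and Abca1 rose, where 2.92% of all genes changed. The other 28 genes passed the test on no day, and voom on the recovered reads called the same genes on each day. The median log2 fold change over the 31 genes was 0.01 at day 1, 0.13 at day 3 and -0.04 at day 7, beside -0.01, 0.00 and 0.00 over all genes tested. The test was limma on log2(scaled RPKM + 0.5), with Benjamini-Hochberg adjustment over all 14195 genes and a threshold of 0.05 on adjusted p. On this scale the pseudocount shrinks fold changes of genes with low levels. Where the libraries of 2 groups are said below not to overlap, this is description only. The share of all genes separated in the same way was not counted, and not every such case is named. Weighting libraries by their quality in limma raised the counts to 6 at day 1 and 9 at day 3, where 13% and 13.8% of all genes were then called, and without the 2 libraries high in muscle transcripts the count at day 1 was 0.

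Hsd17b7 encodes the 3-keto reductase that completes the removal of methyl groups from lanosterol, and the same protein also turns estrone into estradiol. It lies at chr1:169949535-169969241 on the minus strand (ENSMUSG00000026675.12). The naive libraries read 20.4, 23.4 and 21.8 RPKM, and those of day 1 read 35.9, 30.5 and 30.6 RPKM. Day 3 gave 55.4, 52.1 and 51.0 RPKM, and day 7 gave 48.1, 52.9 and 44.0 RPKM. No injured library overlapped the naive ones, day 1 lay between naive and the later days without overlap, and days 3 and 7 overlapped each other. Hsd17b7 was thus 1.47-fold naive at day 1 (log2 0.56, 95% interval 0.27 to 0.85, adjusted p = 0.0358), 2.34-fold at day 3 (log2 1.23, 0.94 to 1.52, adjusted p = 6.6e-05) and 2.14-fold at day 7 (log2 1.10, 0.81 to 1.39, adjusted p = 0.000258). Among the 20 enzymes its mean level ranked 10 in naive, 7 at day 1 and 3 at days 3 and 7. Its share of the summed RPKM of the 20 enzymes was 3.44% to 5.1% in naive libraries and 7.95% to 9.88% at day 3. In whole ganglia, more or fewer cells of a type and more or less RNA per cell cannot be told apart, here and for every gene below. The call at day 1 did not hold when naive replicate 1 was left out (adjusted p = 0.15), nor without naive replicate 3 (0.116), replicate 1 or 2 of day 1 (0.189 and 0.075), replicate 2 or 3 of day 3 (0.0531 and 0.055) or the pair of libraries high in muscle transcripts (0.174), nor with a replicate block (0.0504), no filter (0.0617) or no trend or robust moderation (0.0673). The calls at days 3 and 7 held in each of the 25 other settings tried.

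**Figure D2:**
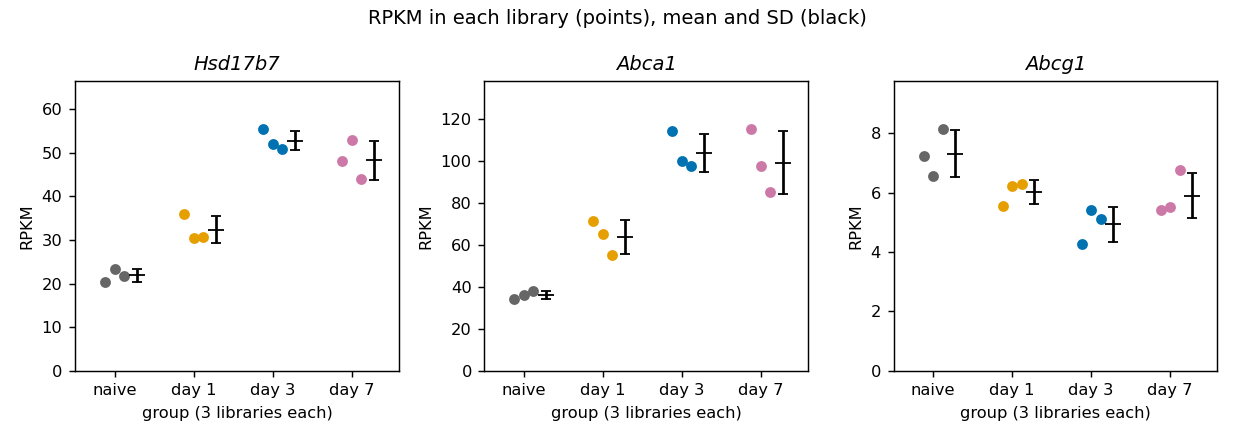
RPKM of Hsd17b7, Abca1 and Abcg1 in each of the 12 libraries (points), with the mean and SD of each group of 3 in black. Hsd17b7 and Abca1 stand above all naive libraries at every day, and Abcg1 at day 3 stands below them at 4.28 to 5.42 RPKM.

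The nearest protein-coding gene upstream of Hsd17b7 was Ddr2, a collagen receptor of fibroblasts, at chr1:169972307-170110762 on the same strand. Its means were 7.37 RPKM in naive, 7.59 at day 1, 10.0 at day 3 and 12.9 at day 7. Ddr2 rose at day 7 (log2 0.74, adjusted p = 0.0318), and its log2 fold changes were 0.04 at day 1 and 0.40 at day 3 (adjusted p of 0.957 and 0.243). Its relation to Hsd17b7 was not tested. The antisense gene 3110045C21Rik lies at chr1:169969409-169972396 on the other strand and overlaps the end of Ddr2. It begins inside the stretch shown above for Hsd17b7, without overlapping the annotated body of Hsd17b7. Its group means were between 0.565 and 0.992 RPKM, too low for the test. Whether the libraries keep strand is not said in the labels.

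Of the 19 enzymes other than Hsd17b7, none passed the test on any day by limma with equal weights. At an unadjusted p under 0.05 there were 1 at day 1, 4 at day 3 and 0 at day 7, where 14.9%, 17.8% and 12.9% of all genes stood. With quality weights in limma, Mvk, Pmvk and Ebp of these 19 passed at day 1 and Acat2, Mvk, Pmvk, Sqle and Ebp at day 3, when all of them were higher than in naive. Those weights called 13% and 13.8% of all genes on these days. The median log2 fold change of the 19 enzymes was 0.01 at day 1, 0.15 at day 3 and -0.02 at day 7, with 10, 15 and 9 of the 19 above 0. Split at squalene, the 9 enzymes up to and including squalene synthase had medians of 0.13, 0.27 and 0.07 on the 3 days, and the 11 that follow had medians of -0.01, 0.13 and -0.04, Hsd17b7 included.

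**Figure D3:**
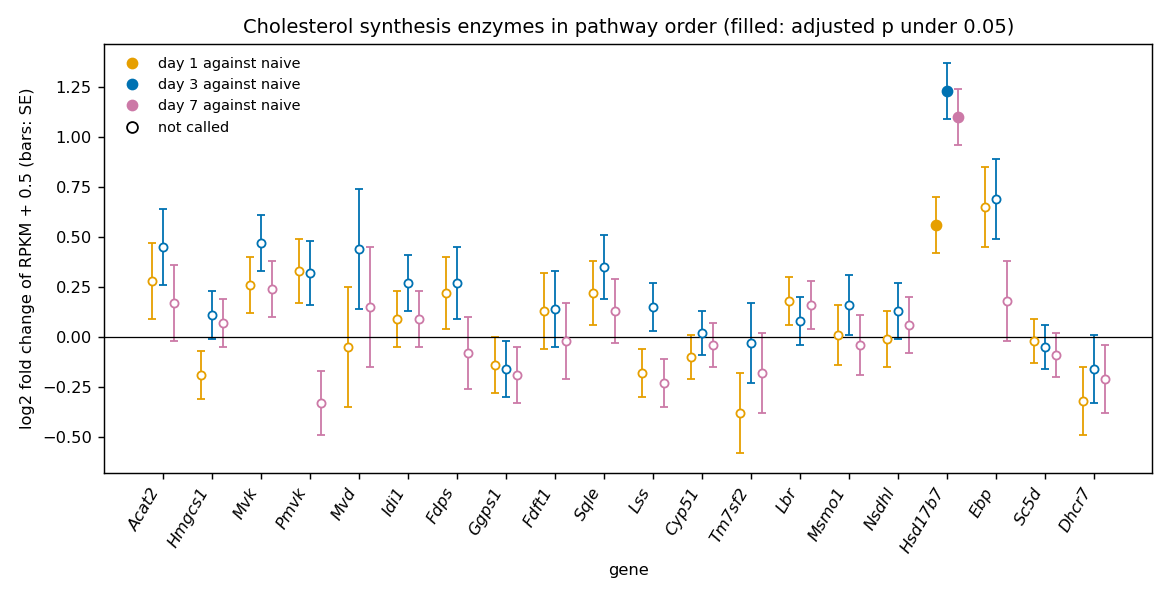
Log2 fold change against naive of the 20 synthesis enzymes in pathway order at days 1, 3 and 7, with SE bars from limma, filled where adjusted p was under 0.05. Hsd17b7 holds the only filled points, at 0.56, 1.23 and 1.10.

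The route to mevalonate and the first isoprenoids was read from 6 enzymes. Acat2, the thiolase that joins acetyl-CoA units, had 27.2 ± 5.17 RPKM in naive, 33.1 ± 7.34 at day 1, 37.8 ± 4.99 at day 3 and 32.1 ± 10.3 at day 7, with adjusted p = 0.22 at day 3. Hmgcs1 read 147, 115 and 120 RPKM in naive, 107, 103 and 122 at day 1, 126, 157 and 136 at day 3 and 114, 152 and 143 at day 7. In the deposited values every injured group overlapped naive, and once the libraries were scaled day 1 lay below naive (adjusted p = 0.501). All day 3 libraries lay above those of day 1 (log2 0.30, adjusted p = 0.414). Its log2 fold change at day 3 against naive had a 95% interval of -0.15 to 0.36. Mvk, mevalonate kinase, came close to the threshold at day 3, with 9.84, 6.46 and 7.66 RPKM in naive and 12.4, 10.8 and 10.9 at day 3 (log2 0.47, adjusted p = 0.0747). All 3 day 3 libraries lay above the naive ones, and leaving out naive replicate 1, its highest naive value, brought Mvk past the threshold. Pmvk, the next kinase, read 8.85 ± 1.13 RPKM in naive, 11.2 ± 0.322 at day 1, 11.4 ± 0.197 at day 3 and 7.33 ± 2.4 at day 7. Its day 1 and day 3 libraries all lay above naive, and a single day 7 library, replicate 1 with 4.57 RPKM, lay far below the others of its group at 8.6 and 8.82 RPKM. The test of Pmvk over all 4 groups gave adjusted p = 0.0526. Mvd stood at 3.17 ± 1.47, 2.97 ± 1.08, 4.33 ± 0.629 and 3.7 ± 1.62 RPKM in the 4 groups in order of time. Idi1, the isomerase that makes the building block for chain growth, stood at 4.78 ± 0.664, 5.08 ± 0.134, 5.96 ± 0.288 and 5.26 ± 1.02 RPKM. All day 3 libraries of Idi1 lay above naive. Neither Mvd nor Idi1 came near the threshold (adjusted p of 0.508 and 0.327 at day 3).

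From the isoprenoids to squalene, 3 enzymes were read and none passed. Fdps, which makes farnesyl diphosphate, had 22.2 ± 4.37 RPKM in naive, 25.8 ± 6.16 at day 1, 27.2 ± 3.23 at day 3 and 22.0 ± 7.21 at day 7. Ggps1, which leads off the route to the geranylgeranyl groups attached to proteins, was 20.1 ± 0.401 in naive and 17.9 ± 2.39 to 18.3 ± 1.9 RPKM in the injured groups. Its deposited values of days 1 and 7 all lay below naive and overlapped naive once the libraries were scaled (adjusted p of 0.714 and 0.652). Fdft1, squalene synthase and the first enzyme committed to sterols, was 39.8 ± 10.5 in naive, 43.1 ± 9.5 at day 1, 44.2 ± 5.43 at day 3 and 40.8 ± 13.2 RPKM at day 7. In Fdft1 the largest spread was within groups, since naive replicate 1 read 51.9 RPKM beside 33.9 and 33.6, and day 7 replicate 1 read 25.7 beside 46.7 and 50.

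After squalene, Sqle opens the sterol branch by oxidising it and is often rate-limiting. It had 40.1 ± 8.06 RPKM in naive, 46.6 ± 8.62 at day 1, 51.8 ± 6.08 at day 3 and 45.1 ± 11.2 at day 7, with adjusted p = 0.26 at day 3. Lss, which closes the ring to lanosterol, had 13.9 ± 0.82, 12.2 ± 0.738, 15.9 ± 1.3 and 12.2 ± 2.83 RPKM in naive and at days 1, 3 and 7. All day 1 libraries of Lss lay below naive and all day 3 libraries above, and neither difference passed (adjusted p of 0.555 and 0.573). Cyp51, the demethylase that acts first on lanosterol, was level, with 37.8 ± 5.31, 34.9 ± 0.629, 38.9 ± 3.75 and 37.5 ± 6.13 RPKM.

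Tm7sf2 and Lbr encode reductases of the same step, and Lbr also anchors chromatin at the nuclear lamina. Tm7sf2 had 7.85 ± 1.22 RPKM in naive, 5.88 ± 0.716 at day 1, 7.87 ± 1.69 at day 3 and 7.32 ± 2.91 at day 7. Lbr had 9.8 ± 0.417 RPKM in naive and group means between 10.6 and 11.2 RPKM after injury. All Lbr libraries of days 1 and 7 lay above naive, and neither day passed (adjusted p of 0.552 and 0.685). At day 1 the 2 reductases thus had log2 fold changes of opposite sign, -0.38 for Tm7sf2 and 0.18 for Lbr, neither past the threshold (adjusted p of 0.423 and 0.552).

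Hsd17b7 works in a complex with Msmo1 and Nsdhl, which act on the same methyl groups just before it. Msmo1 had 61.8, 43.1 and 47.6 RPKM in naive, 48.2, 41.2 and 63.8 at day 1, 55.2, 59.3 and 58.2 at day 3 and 38.7, 61.9 and 52.1 at day 7. Nsdhl had 32.4, 27.0 and 29.3 RPKM in naive, 30.7, 25.6 and 31.4 at day 1, 29.1, 39.4 and 31.4 at day 3 and 23.6, 38.7 and 33.6 at day 7. Both overlapped naive at every day. Their log2 fold changes at day 3 were 0.16 for Msmo1 (95% interval -0.16 to 0.49) and 0.13 for Nsdhl (-0.17 to 0.43), and both intervals lie below that of Hsd17b7, which starts at 0.94. The difference between these genes was not tested itself.

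The steps that follow Hsd17b7 belong to Ebp, Sc5d and Dhcr7. Ebp had the lowest level of the enzymes and the fold changes nearest to those of Hsd17b7 at days 1 and 3, with 2.0, 1.61 and 1.78 RPKM in naive, 3.64, 2.56 and 3.1 at day 1, 2.44, 4.14 and 3.37 at day 3 and 1.42, 2.47 and 2.7 at day 7. All Ebp libraries of days 1 and 3 lay above naive, and neither day passed (log2 0.65, adjusted p = 0.108, and log2 0.69, adjusted p = 0.0617). Ebp rested on 40 to 114 reads per library, so counting error weighs more on it than on any other enzyme. Sc5d, the desaturase, kept 26.9 ± 2.49 RPKM in naive and 25.8 to 26.5 RPKM on average after injury. Dhcr7, a reductase of the last steps, had 10.7 ± 2.56 RPKM in naive and means of 8.34, 9.59 and 9.58 RPKM at days 1, 3 and 7, with adjusted p = 0.435 at day 1.

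The enzymes varied between libraries of the same group as well as between groups. The summed level of the 19 enzymes other than Hsd17b7 was 573, 435 and 465 RPKM in naive, 472, 439 and 554 at day 1, 505, 603 and 558 at day 3 and 393, 580 and 553 at day 7. All 4 groups overlapped, with means of 491 ± 72.5, 488 ± 59.3, 556 ± 49.2 and 509 ± 101 RPKM. Day 7 replicate 1 had the lowest level of all 12 libraries in 14 of the 19 enzymes, and naive replicate 1 the highest of its group in 17 of 19. After scaling of the libraries these counts were 11 and 13. Day 7 replicate 1 was also the lowest library in the summed level of 14 myelinating Schwann cell markers, 978 RPKM beside 1030 to 1760 in the others, and of 12 neuron markers, 902 RPKM. Naive replicate 1, day 1 replicate 3 and day 3 replicate 2 each had the highest sum of the 19 enzymes in their group. They also had the highest sums of the Schwann cell and neuron markers. At day 7 replicate 2 was highest for the enzymes (580 RPKM) and the neuron markers (1490 RPKM). Replicate 3 was highest there for the Schwann cell markers (1760 RPKM). Of 13 Schwann cell markers tested, 1 changed, Pmp2, which fell by 1.41 on the log2 scale at day 1 (adjusted p = 0.0185) and passed on no other day. The 13 had median log2 fold changes of -0.09, -0.04 and -0.03 on the 3 days. The part of Schwann cell or neuron content in the enzyme levels was not tested.

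**Figure D4:**
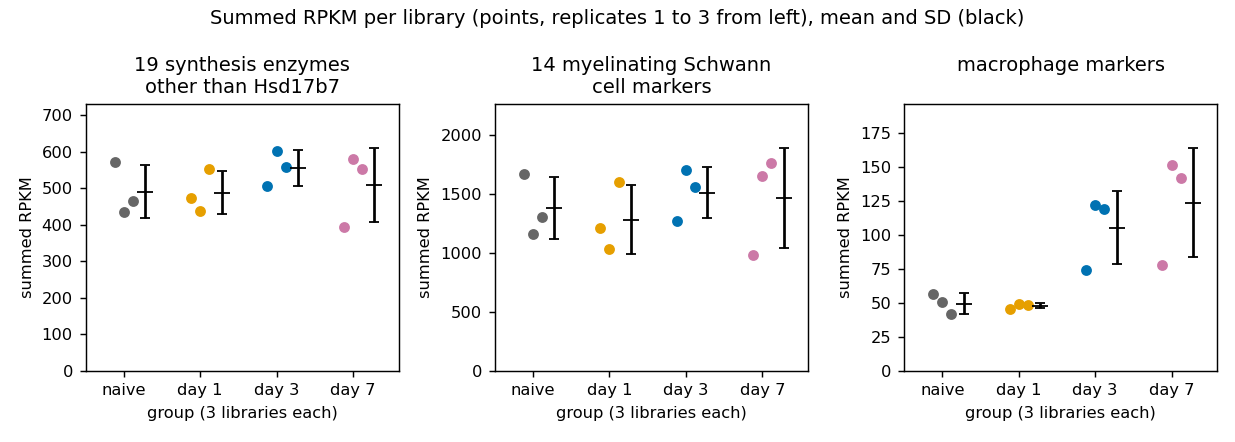
Summed RPKM in each library (points, replicates 1 to 3 from left) of the 19 enzymes other than Hsd17b7, of 14 myelinating Schwann cell markers and of 15 macrophage markers, with the mean and SD of each group in black. The enzyme and Schwann cell sums overlap in all groups, and the macrophage sum is 41.4 to 56.3 RPKM in naive and 74.4 to 151 RPKM at days 3 and 7.

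None of the 7 regulators passed the test on any day (Insig1 did at day 3 with quality weights), and at an unadjusted p under 0.05 there were 0, 1 and 0 of them at days 1, 3 and 7, beside the shares of 14.9%, 17.8% and 12.9% over all genes. Their median log2 fold changes were 0.01, -0.01 and -0.06. Srebf2, the SREBP gene most tied to cholesterol synthesis, had 13.9 ± 1.21 RPKM in naive, 15 ± 0.395 at day 1, 14.1 ± 0.606 at day 3 and 13.9 ± 3.9 at day 7. Srebf1, whose products act more on fatty acid synthesis, had 6.04 ± 1.05, 6.34 ± 0.761, 6.85 ± 0.858 and 6.43 ± 1.9 RPKM in the same order. Both genes overlapped naive at every day, and the 95% interval at day 3 was -0.29 to 0.28 on the log2 scale for Srebf2 and -0.19 to 0.49 for Srebf1. SREBP activity is set by cutting of the protein, which these data do not measure.

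Scap, the escort of the SREBP proteins, had 7.2 ± 1.09 RPKM in naive and 6.23 ± 0.534 at day 3 (adjusted p = 0.486). Insig1, which holds SCAP back and is itself a well-known SREBP target, read 23.3, 18.3 and 21.1 RPKM in naive, 22.1, 16.3 and 24.4 at day 1, 25.2, 31.4 and 30 at day 3 and 16.5, 26.4 and 26.5 at day 7. Its day 3 libraries lay above all naive ones, with a log2 fold change of 0.43 that missed the threshold (adjusted p = 0.127). In a fit of only the 2 groups compared, the count of the 31 genes called at day 3 was 5, with Insig1 and Ebp added to the 3 named above, where 8.38% of 13491 genes were called. Insig2 had 17.0 ± 2.25 RPKM in naive and means of 16.3 to 16.6 RPKM after injury. Nr1h2, which encodes LXRβ, had 2.85 ± 0.758 RPKM in naive and 2.25 ± 0.613, 3.13 ± 0.517 and 2.77 ± 1.16 RPKM at days 1, 3 and 7. Nr1h3, for LXRα, had 1.81 ± 0.202, 2.12 ± 0.354, 1.49 ± 0.177 and 1.37 ± 0.175 RPKM in naive and at days 1, 3 and 7. All day 7 libraries of Nr1h3 lay below naive, a difference that did not pass (log2 -0.32, adjusted p = 0.532).

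**Figure D5:**
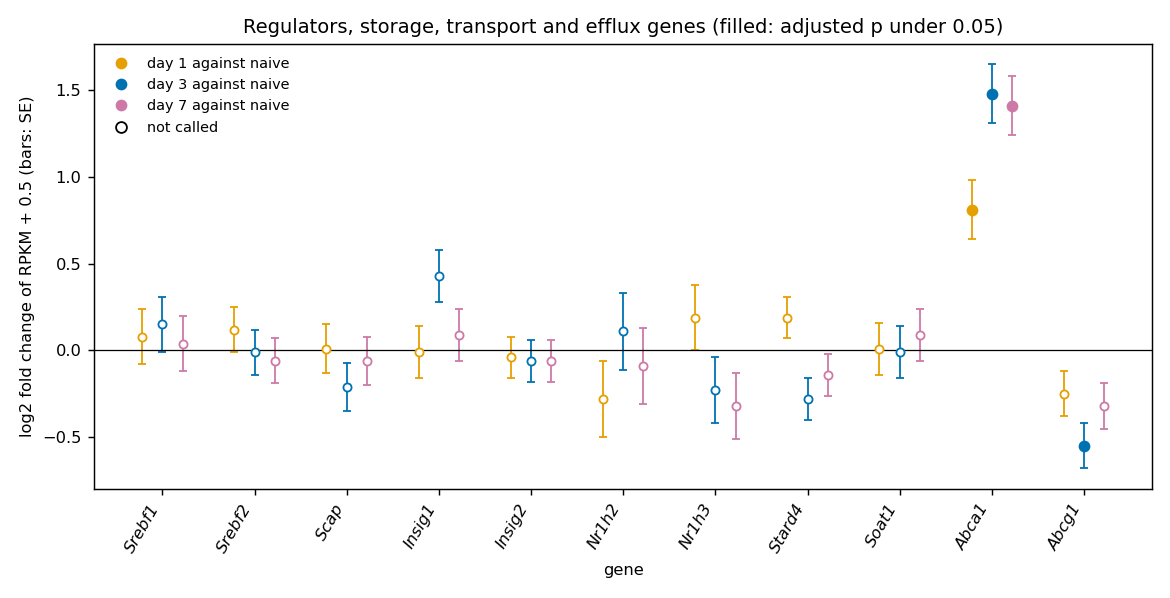
Log2 fold change against naive of the 7 regulators and the 4 genes of storage, transport and efflux at days 1, 3 and 7, with SE bars from limma, filled where adjusted p was under 0.05. Abca1 is filled at 0.81, 1.48 and 1.41 and Abcg1 at day 3 at -0.55.

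Abca1 encodes the pump that loads cholesterol onto apolipoprotein A-I and is an LXR target. It lies at chr4:53030787-53159895 on the minus strand (ENSMUSG00000015243.4). The naive libraries read 34.2, 36.3 and 38.0 RPKM, and those of day 1 read 71.2, 65.2 and 55.1 RPKM. Day 3 gave 114, 100 and 97.4 RPKM, and day 7 gave 115, 97.6 and 85.0 RPKM. Every injured library lay above every naive one, and the libraries of days 3 and 7 all lay above those of day 1. Abca1 was 1.76-fold naive at day 1 (log2 0.81, 95% interval 0.44 to 1.19, adjusted p = 0.0185), 2.79-fold at day 3 (log2 1.48, 1.10 to 1.85, adjusted p = 0.000116) and 2.65-fold at day 7 (log2 1.41, 1.03 to 1.78, adjusted p = 0.000274). The call at day 1 did not hold when naive replicate 1, 2 or 3 was left out (adjusted p of 0.0812, 0.0522 and 0.053), nor without replicate 1 or 2 of day 1 (0.111 and 0.0616) or the pair of libraries high in muscle transcripts (0.104). Those at days 3 and 7 held in each of the 25 other settings.

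Macrophages express Abca1, and all 12 of their tested markers had log2 fold changes above 0 at days 3 and 7. Of these 12 markers, 0 changed at day 1, 6 rose at day 3 and 6 at day 7, with median log2 fold changes of 0.21, 0.93 and 1.14. At an unadjusted p under 0.05 in limma there were 1, 11 and 12, where 14.9%, 17.8% and 12.9% of all genes stood. The 15 markers found in the files summed to 41.4 to 56.3 RPKM in naive, 45.6 to 48.8 at day 1, 74.4 to 122 at day 3 and 77.6 to 151 at day 7, and C1qa was at 0 in all 3 naive libraries. At day 1 the macrophage sum stayed inside the naive range, and 8 of the 12 tested markers had log2 fold changes above 0. Lyz2 made up most of that sum, with means of 30.3 RPKM in naive and 25.2 RPKM at day 1. The sum itself had means of 49.4 and 47.7 RPKM. At days 3 and 7 the library with the lowest macrophage sum of its group, replicate 1 in both, had the highest Abca1, 114 and 115 RPKM. In the deposited values the highest Hsd17b7 was in that library at day 3, and at day 7 in replicate 2, which had the highest macrophage sum of its group. Once the libraries were scaled (factors of 0.909 for day 7 replicate 1 and 1.039 for replicate 2), replicate 1 had the highest Hsd17b7 at day 7 too. Of 10 satellite glia markers tested, Glul and Atp1b2 rose at day 1 and Glul at day 3, where 3.43% and 5.67% of all genes changed. The 10 had median log2 fold changes of -0.05, -0.03 and 0.06 on the 3 days, with 5, 4 and 7 above 0. They summed to 382 to 500 RPKM in naive, 301 to 447 at day 1, 386 to 471 at day 3 and 356 to 532 at day 7. Of 12 neuron markers 1, Elavl3, rose at days 1 and 3. The 12 had median log2 fold changes of -0.07, -0.02 and -0.07 on the 3 days, with 4, 6 and 5 above 0. Of 8 fibroblast markers 1, Col3a1, fell at day 1, with median log2 fold changes over the 8 of -0.30, 0.01 and 0.28 on the 3 days. The fibroblast sum was 187 to 276 RPKM in naive, 172 to 225 at day 1, 215 to 272 at day 3 and 202 to 355 at day 7. The part of these cells in the rise of Abca1 and Hsd17b7 was not tested. The gene next to Abca1 on the other strand, Nipsnap3b, had means of 11.4, 11.5, 15.1 and 14.1 RPKM and passed on no day (adjusted p of 0.25 at day 3).

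Abcg1, the partner exporter that loads cholesterol onto HDL particles and another LXR target, moved the other way. It lies at chr17:31057675-31117988 on the plus strand (ENSMUSG00000024030.7). The naive libraries read 7.24, 6.57 and 8.13 RPKM, day 1 gave 5.55, 6.23 and 6.29, day 3 gave 4.28, 5.42 and 5.11, and day 7 gave 5.4, 5.5 and 6.76 RPKM. Days 1 and 3 lay below all naive libraries. Day 7 overlapped them through its replicate 3 in the deposited values and lay below them once the libraries were scaled. Abcg1 fell by 0.55 on the log2 scale at day 3 (95% interval -0.83 to -0.27, adjusted p = 0.0223), and at days 1 and 7 the log2 fold changes were -0.25 (adjusted p = 0.402) and -0.32 (adjusted p = 0.301). The call at day 3 did not hold when naive replicate 2 or 3 was left out (adjusted p of 0.0506 and 0.125), nor without replicate 1 or 3 of day 3 (0.0877 and 0.0604). Abca1 and Abcg1, both known LXR targets, thus changed in opposite directions at day 3 in the same libraries.

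Stard4, a carrier of cholesterol between membranes and a known SREBP target, read 12.4, 13.2 and 11.1 RPKM in naive, 14.9, 13.8 and 13.1 at day 1, 9.97, 9.47 and 11.2 at day 3 and 10.7, 10.8 and 12.2 at day 7. Its day 3 libraries lay below all those of day 1, a log2 difference of -0.47 that did not pass (adjusted p = 0.142). Once the libraries were scaled, day 3 of Stard4 lay below naive too (log2 -0.28, adjusted p = 0.243). Soat1, which esterifies cholesterol for storage, was level at 7.29 ± 0.44, 7.35 ± 1.19, 7.37 ± 0.143 and 7.94 ± 0.408 RPKM in naive and at days 1, 3 and 7.

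Between the injured days, Hsd17b7 was the only one of the 31 genes called at day 3 against day 1, where 0.507% of all genes changed. It was higher at day 3 by a log2 of 0.67 (95% interval 0.38 to 0.96, adjusted p = 0.0468). The call was lost in 10 of 12 fits that left out a library, with adjusted p up to 0.175, all but those without day 7 replicate 1 or 3, and in 5 of 13 other settings. With no scaling or by voom, Abca1 passed too. The difference for Abca1 was also 0.67 with a wider error (adjusted p = 0.145), so the 2 genes are not shown to differ in this. At day 7 against day 1 none of the 31 passed, where 0.972% of all genes changed, with 7 at an unadjusted p under 0.05 (10.4% of all genes) and 1, Hsd17b7, called by voom on the recovered reads. There Hsd17b7 had a log2 difference of 0.54 (adjusted p = 0.0883) and Pmvk one of -0.66 (adjusted p = 0.0749). At day 7 against day 3 none of the 31 passed, as for all genes, where 0% changed, with 4 of the 31 at an unadjusted p under 0.05 (5.04% of all genes) and 0 called by voom. A test of any difference among the 4 groups found Hsd17b7 (adjusted p = 0.000193) and Abca1 (adjusted p = 0.000317), where it found 4.78% of all genes.

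Of 35 other sterol genes tested, among them genes of lipoprotein uptake, lysosomal release and oxysterol synthesis, 0 passed at day 1, 1 rose at day 3 (not described here) and 0 passed at day 7, with medians of 0.00, 0.10 and 0.09. Of 18 genes listed for fatty acid synthesis, the other branch of SREBP targets, 2 changed at day 1, 2 at day 3 and 1 at day 7. Beside both lists, 3.43%, 5.67% and 2.92% of all genes changed on these days. Pnpla3, a lipid droplet protein that SREBP-1c is known to switch on, read 5.51, 7.68 and 7.11 RPKM in naive, 2.71, 3.32 and 3.76 at day 1, 3.58, 3.55 and 3.3 at day 3 and 3.14, 3.2 and 4.03 at day 7. No injured library of Pnpla3 overlapped naive, and it fell by 0.94, 0.88 and 0.90 on the log2 scale on the 3 days (adjusted p of 0.00514, 0.00537 and 0.00731). Elovl6, a fatty acid elongase, fell by 0.50 at day 1 (adjusted p = 0.0456). Acly, which supplies acetyl-CoA to both routes, rose by 0.44 at day 3 (adjusted p = 0.0279). The median of the 18 genes was -0.01, 0.03 and -0.03 on the 3 days.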

How the data were processed

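RNA of mouse dorsal root ganglia was amplified from a low input and sequenced, per the labels' protocols. The submitters' processing notes name bcl2fastq 2.17, STAR, HTSeq, edgeR, limma and the mm10 build, with no role or order; for the annotation and the way of counting, the sources used here give nothing. The files hold RPKM as the authors computed them. No unit is written there, and it was inferred from the steps between a gene's values, which are multiples of 1 read. Whole reads, to within 0.05 reads, were recovered for 21579 of 21597 detected genes (99.9%), giving 11801338 to 15403014 reads per library, which are amplified copies and not counts of molecules. Of 24060 symbols in the files, 27 had been turned into dates, none of them a gene used here.

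A gene was tested if 3 or more libraries reached an RPKM of 1 (14195 genes). Trimmed means of log ratios (30% of ratios and 5% of levels trimmed per end) gave scale factors of 0.909 to 1.091. limma 3.58.1 in R 4.3.3 (statmod 1.5.0) was fitted to log2(scaled RPKM + 0.5) with 4 group means over all 12 libraries (8 residual degrees of freedom), a variance trend and robust moderation. Tests were two-sided, adjusted by Benjamini-Hochberg over the 14195 genes, with 0.05 as the threshold. RPKM are printed as deposited, and fold changes are from the scaled values. On simulated data for day 3 against naive (13935 genes), 82.5% of log2 changes of 1 and 96% of log2 changes of 2 were recovered, and 5.4% of calls were false. Recovery was taken over changed genes that passed the filter. The noise was normal, independent between genes and drawn from the moderated variances, and far fewer genes were changed than were called at day 3. In the real libraries many genes shift together, so these figures check the fit and do not give its power or error rate here.

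The sample titles gave groups and replicate numbers. Same-numbered libraries of different groups had correlations of deviations of -0.34 to 0.23. Differently numbered libraries were not compared, so these values cannot decide whether the replicate numbers pair libraries. The main fit used no pairing. The members and lists were chosen with earlier results of these data known. Members called in any comparison were given in every library, as were some that stand for their step or came near the threshold, picked after their values were seen. The rest were given by group, and other genes were named only where a listed gene was called or lay within 50 kb of a called member. Alternatives were another pseudocount, filter or scaling, limma without trend or robust moderation, only the groups compared, quality weights, voom on recovered reads, a replicate block and leaving out libraries. Gene positions are from GENCODE M21 on mm10. Some genes of the pathway are not reported here.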

Additional observations from a re-analysis of the deposited data

Results flagged for a closer look

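Hsd17b7 had different effects at 2 times after injury, by a test of the difference itself. Its level was higher at day 3 than at day 1 by 0.67 on the log2 scale (limma, adjusted p = 0.0468), with all 3 day 3 libraries, at 51.0 to 55.4 RPKM, above all 3 of day 1, at 30.5 to 35.9 RPKM. Leaving out a library moved the log2 difference between 0.59 and 0.76 and adjusted p between 0.0286 and 0.175. The call was lost in 10 of those 12 fits and kept without day 7 replicate 1 or day 7 replicate 3. It was also lost in 5 of 13 other settings, with adjusted p of 0.0102 to 0.0883 over the 13. The cause was not tested.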

How the results depend on the processing

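The counts below are of the 31 genes past the threshold. At day 1 against naive (2) the count was 1 with no filter, 1 with no trend or robust moderation, 6 with quality weights, 1 with a replicate block and 0 without the 2 libraries high in muscle transcripts, and 0 to 2 with a library left out. At day 3 against naive (3) it was 9 with quality weights and 5 with only the 2 groups compared, and 2 to 4 with a library left out. At day 7 against naive (2) no setting moved it. At day 3 against day 1 (1) it was 2 with no scaling or with voom, 3 with quality weights, 0 with a pseudocount of 0.1, no filter, no trend or robust moderation, a replicate block or without the libraries high in muscle transcripts, and 0 to 2 with a library left out. At day 7 against day 1 (0) it was 2 with no scaling and 1 with quality weights or voom. For any difference (2) it was 9 with quality weights, and 2 to 3 with a library left out. With quality weights 13% of all genes were called at day 1 against naive and 13.8% at day 3 against naive. They were 2.46% at day 3 against day 1 and 2.06% at day 7 against day 1. For any difference the share of all genes with these weights was not counted, so the 9 cannot be set against it. The causes were not tested. No pairing beyond shared replicate numbers is known here, so the replicate block cannot be read as a paired analysis. It changed no call at day 3 or day 7 against naive. No called fold change of Hsd17b7, Abca1 or Abcg1 reversed in these settings. The lowest genes, Ebp and Nr1h3, rested on 40 and 41 reads in their shallowest library, which limits what could be called there.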
